A study of Mus musculus with 6 samples.

Results

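Dendritic cells are the leukocytes that carry antigen from skin to lymph nodes and show it to T cells. A resting dendritic cell is recognised by its identity genes, which encode the receptors and transcription factors that set up the lineage. On maturation it adds surface molecules that T cells need beside antigen: CD80 and CD86 bind CD28 and CTLA4 on the T cell, CD40 receives the CD40 ligand from helper T cells, and CD83 holds MHC class II and CD86 at the cell surface by opposing a ubiquitin ligase. The 10 genes described here are 4 maturation genes (Cd83, Cd80, Cd86 and Cd40) and 6 identity genes (Cd207, Itgax, Flt3, Zbtb46, Irf8 and Irf4), out of 18824 genes in the deposited table. They were selected on their symbols, and the set was chosen from results of the same comparison of CCR3 with VEH that is given below, in FPKM, a read-based level that is divided by transcript length and by library size. Their differences between the groups are therefore a description and not a test. All 10 reached the level needed for the fit across genes (at least 1 FPKM in 3 libraries), as did 13063 genes of the table.

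The 6 libraries were made from skin of C57BL/6j mice treated with MC903, a vitamin D analogue that brings on a dermatitis, with 3 libraries in each of 2 groups. The VEH libraries came from mice given vehicle. For the CCR3 libraries the title and design text give SB328437, which blocks the receptor CCR3, whereas the treatment label of the same libraries reads SC144, an inhibitor of gp130, so the group is called by the name in its titles. The labels state no age, dose or time of treatment, skin without MC903 was not analysed here, and nothing says whether replicates 1, 2 and 4 of a group were separate mice, so that any p-value measures only the spread between these libraries.

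Whole skin holds few dendritic cells among keratinocytes and other leukocytes, and fewer cells of a type cannot be told apart from less RNA per cell. The summed FPKM of 6 genes shared by all leukocytes (Ptprc, Cd53, Coro1a, Laptm5, Itgb2 and Cd52) ran from 810.6 to 872.7 in VEH and from 581.8 to 834.0 in CCR3. CCR3 replicate 4 held the 834.0, and CCR3 replicates 1 and 2 stood at 667.8 and 581.8. Between libraries of 1 group Pearson's r of log2(FPKM + 1) over the 13063 genes was 0.987 to 0.996, and between groups 0.981 to 0.991. The members cover cells that are not all dendritic. Among other cases, macrophages also carry Itgax and Irf8, and B cells carry Cd83, Cd40, Irf8 and Irf4. Of 6 listed B and plasma cell genes, 4 (Ms4a1, Cd79a, Pax5 and Jchain) did not exceed 0.40 FPKM in any library, whereas Cd79b was 1.12 to 1.97 FPKM in CCR3 and 2.26 to 3.27 FPKM in VEH, without overlap, and its part in the difference of Cd83 was not tested.

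Per transcript length, Irf8 was the most abundant member in VEH at 30.9 FPKM on average, followed by Itgax at 15.0 and Cd86 at 14.8 FPKM, whose libraries overlapped. Cd40 (8.90 FPKM), Cd80 (8.15 FPKM) and Cd83 (7.62 FPKM) came next and also overlapped with each other. Cd207 (4.93 FPKM) and Flt3 (3.24 FPKM) were lower and separate from each other, and Zbtb46 (2.38 FPKM) and Irf4 (2.35 FPKM) were lowest and overlapped. In CCR3, Cd83 at 3.04 FPKM stood below Cd207 at 5.49 and within the libraries of Flt3 at 3.45 FPKM. Cd83 was thus the member whose place in the order moved most.

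Cd83 (Entrez gene 12522), the surface protein by which mature dendritic cells are named, was measured at 8.57, 7.54 and 6.76 FPKM in VEH replicates 1, 2 and 4 and at 3.17, 3.00 and 2.95 FPKM in the CCR3 replicates of the same numbers. The groups were far apart, and the CCR3 libraries lay close together. The means were 7.62 ± 0.908 and 3.04 ± 0.115 FPKM (SD, n = 3 each), so that CCR3 held 39.9% of the VEH level. On the log2(FPKM + 1) scale the difference was -1.09 ± 0.09 (SE), which was the 15th lowest among the 13063 genes, and the gene was past the threshold of the fit (limma with Benjamini-Hochberg adjustment over all genes, adjusted p = 0.00226). Without each library in turn the difference stayed between -1.16 and -1.01.

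Cd80, which encodes the B7-1 ligand of CD28 and CTLA4, was 7.31, 8.82 and 8.32 FPKM in VEH and 6.08, 5.67 and 6.79 FPKM in CCR3. All CCR3 libraries lay below all VEH libraries, at 75.8% of the VEH mean (6.18 ± 0.567 against 8.15 ± 0.769 FPKM). Its log2 difference of -0.35 ± 0.09 (SE) did not pass, and it was -0.41 and past the threshold without CCR3 replicate 4. Cd86, the B7-2 ligand of the same receptors, was 16.8, 13.2 and 14.4 FPKM in VEH and 14.4, 14.1 and 15.2 FPKM in CCR3. Its groups lay on top of each other, with a log2 difference of -0.02 ± 0.09 (SE) that turned to 0.0142 with median-centred values. Cd40 was 9.38, 9.29 and 8.02 FPKM in VEH and 8.0, 7.49 and 8.56 FPKM in CCR3. The groups overlapped through VEH replicate 4 and CCR3 replicate 4, and the difference was -0.13 ± 0.08 (SE). Within the maturation genes the values thus ran from 39.9% of the VEH mean for Cd83 to 98.4% for Cd86.

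**Figure D1:**
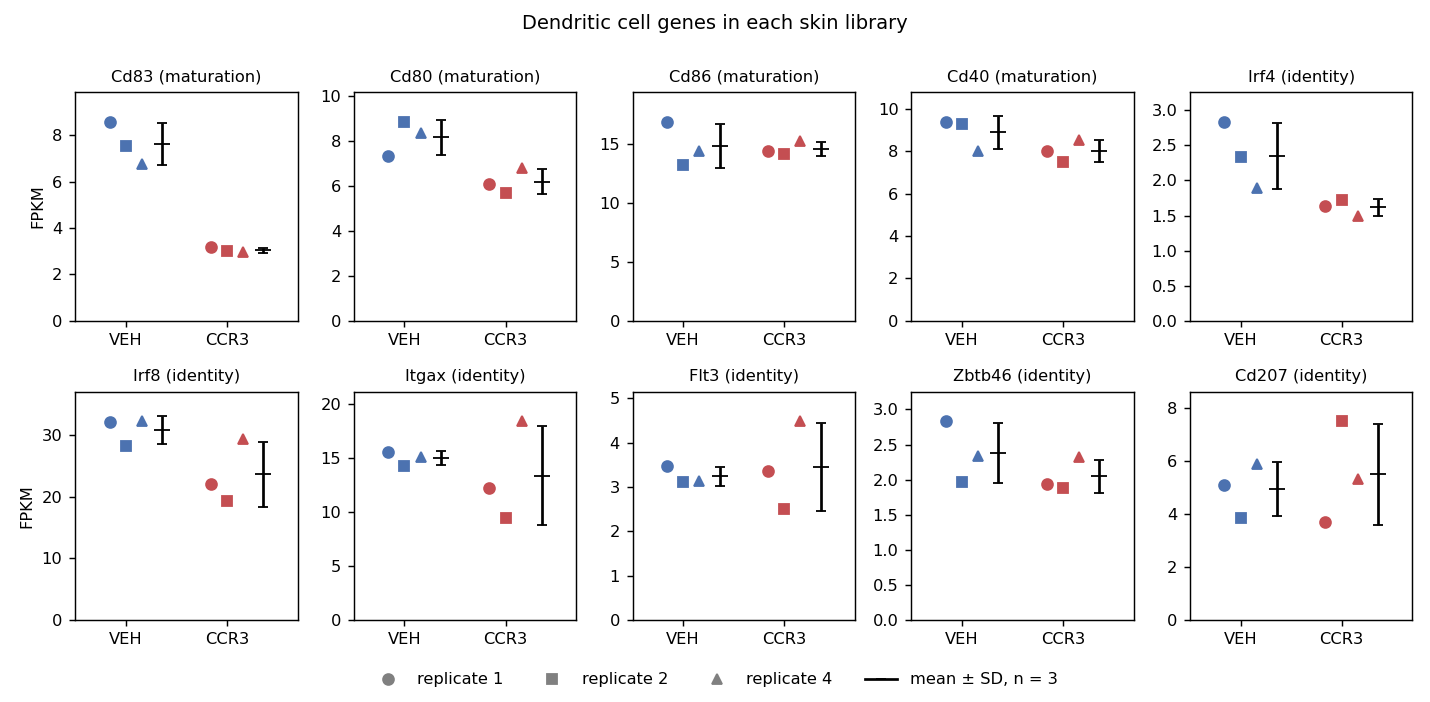
FPKM of the 10 genes in each library (y axes start at 0 and differ between panels), with 1 symbol per replicate number and the mean ± SD over 3 libraries in black. Cd83 lies near 3 FPKM in all CCR3 libraries against 6.76 to 8.57 FPKM in VEH, and Irf8, Itgax and Flt3 are highest among CCR3 libraries in replicate 4.

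Of the transcription factors, Irf4, which directs type 2 conventional dendritic cells and is also active in lymphocytes, was 2.83, 2.34 and 1.89 FPKM in VEH and 1.64, 1.72 and 1.49 FPKM in CCR3. The groups did not overlap, and CCR3 held 68.7% of the VEH mean, with a log2 difference of -0.35 ± 0.11 (SE). Irf8, needed for type 1 conventional and plasmacytoid dendritic cells, was 32.1, 28.3 and 32.3 FPKM in VEH and 22.2, 19.3 and 29.5 FPKM in CCR3. CCR3 replicate 4 alone reached into the VEH range, and CCR3 held 76.5% of the VEH mean. The log2 difference of Irf8 was -0.39 ± 0.14 (SE) and did not pass, whereas without CCR3 replicate 4 it was -0.55 and past the threshold. Zbtb46, a zinc-finger factor that marks conventional dendritic cells, was 2.83, 1.97 and 2.33 FPKM in VEH and 1.94, 1.88 and 2.32 FPKM in CCR3, with a log2 difference of -0.14 ± 0.11 (SE).

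Among the surface markers, Itgax, the CD11c integrin chain, was 15.6, 14.3 and 15.2 FPKM in VEH and 12.2, 9.45 and 18.4 FPKM in CCR3. The lowest and the highest library of all 6 were both in CCR3. Its log2 difference was -0.20 ± 0.19 (SE), which became -0.44 and passed without CCR3 replicate 4, and became 0.0035 without CCR3 replicate 2. Flt3, the receptor for the growth factor that drives dendritic cell development, was 3.48, 3.11 and 3.13 FPKM in VEH and 3.36, 2.51 and 4.48 FPKM in CCR3. As for Itgax, CCR3 replicates 2 and 4 held the extremes (log2 difference 0.05 ± 0.15 SE). Cd207, the langerin gene of Langerhans cells and of some dermal dendritic cells, was 5.09, 3.83 and 5.88 FPKM in VEH and 3.68, 7.49 and 5.31 FPKM in CCR3. It was highest in CCR3 replicate 2, the library lowest in Itgax, Flt3 and Irf8, and its difference was 0.10 ± 0.21 (SE).

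Of the 10 members 1, Cd83, was past the threshold, and 9 were not. Over all genes tested 3.74% were past it, 2.37% lower and 1.36% higher in CCR3 (310 and 178 genes, against 261 and 230 with median-centred values). The groups did not overlap for 3 members, all lower in CCR3 (Cd83, Cd80 and Irf4), while 18.3% of all tested genes did not overlap and were lower and 10.4% did not overlap and were higher. Since the members were chosen with these differences known, nothing is read from the counts. Without CCR3 replicate 4 the members past the threshold were 4 (Cd83, Cd80, Irf8 and Itgax), all lower, and the share of all tested genes past it was 12.6% (8.29% lower and 4.27% higher). The median log2 difference was -0.24 over the maturation genes and -0.17 over the identity genes, beside -0.04 over all tested genes.

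**Figure D2:**
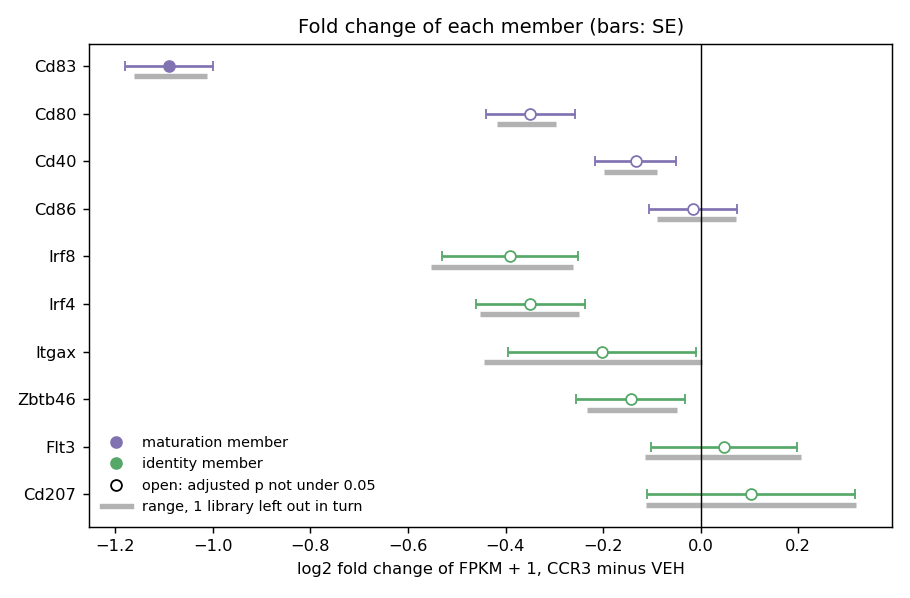
Log2 fold change of FPKM + 1 (x axis, CCR3 minus VEH) for each gene, with SE bars, filled where the adjusted p was under 0.05, and grey bars for the range when 1 library at a time was left out. Cd83 lies at -1.09, apart from the other genes, which lie between -0.39 and 0.10.

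The maturation genes were then set against the identity genes within each library. The mean log2(FPKM + 1) of the 4 maturation genes minus that of the 6 identity genes was 0.50, 0.66 and 0.46 in VEH replicates 1, 2 and 4 and 0.41, 0.34 and 0.16 in CCR3. All CCR3 libraries lay below all VEH libraries, and the mean difference between groups was -0.24. With Cd83 left out of the maturation mean, the same quantity was 0.57, 0.76 and 0.59 in VEH and 0.72, 0.65 and 0.52 in CCR3, and the groups overlapped (difference -0.01). The gap between the maturation and identity genes was thus carried by Cd83, and the other 3 maturation genes differed between groups, on average, by about as much as the identity genes did. That division was made after the values had been seen.

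Ratios inside a library do not depend on its scaling. Cd83 stood at 0.509, 0.570 and 0.469 of the FPKM of Cd86 in VEH and at 0.220, 0.213 and 0.194 in CCR3. Relative to Itgax, it was 0.446 to 0.55 in VEH and 0.160 to 0.317 in CCR3, lowest in CCR3 replicate 4, where leukocyte genes were at VEH levels. Irf8 relative to Itgax was 1.98 to 2.13 in VEH and 1.6 to 2.04 in CCR3, and these ranges overlapped. Cd83 was thus lower relative to Cd86 and to Itgax in each CCR3 library than in any VEH library. The set was chosen with the difference of Cd83 known, so these ratios are a description. Macrophages also carry Itgax. In whole skin neither Itgax nor Cd86 can be read as a level of dendritic cells alone, and the part of cell content in the ratios was not tested.

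**Figure D3:**
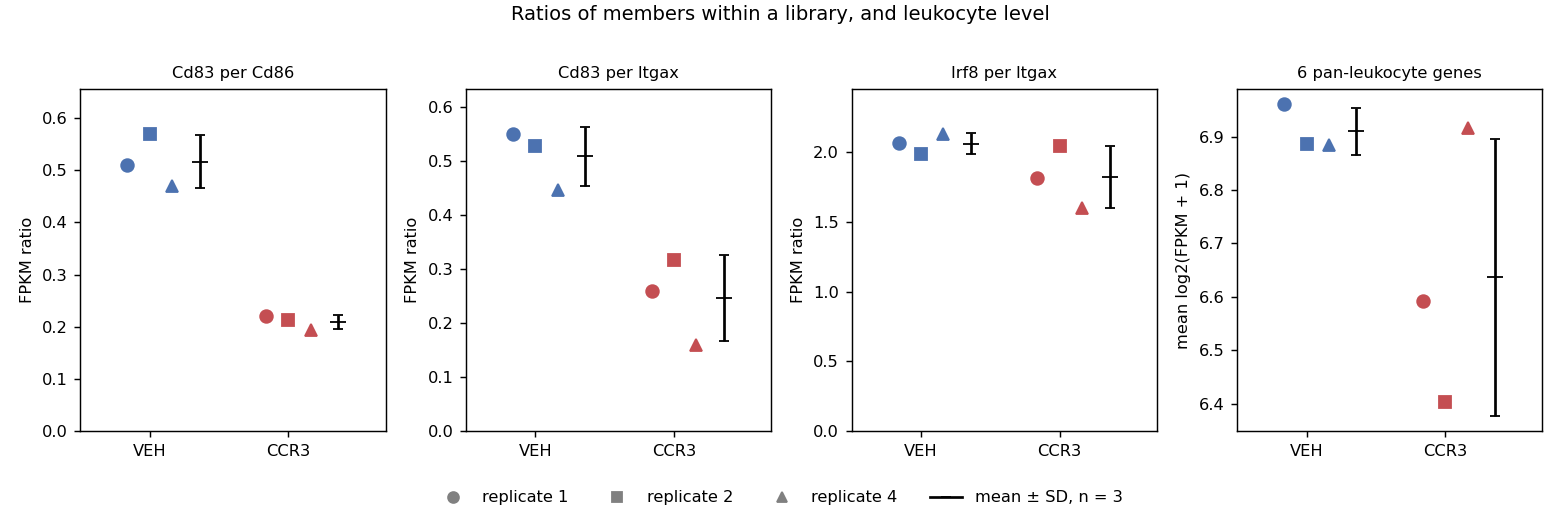
FPKM ratios of members within each library (first 3 panels, y axes from 0) and the mean log2(FPKM + 1) of 6 pan-leukocyte genes (last panel, y axis not from 0), with mean ± SD over 3 libraries. Cd83 per Cd86 is 0.194 to 0.220 in CCR3 and 0.469 to 0.570 in VEH, while CCR3 replicate 4 lies among the VEH libraries in the leukocyte panel.

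The pan-leukocyte genes were lower on average in CCR3 (median log2 difference -0.25, 6 of 6 negative, none past the threshold). CCR3 replicate 4, with a mean log2(FPKM + 1) of 6.92, lay among the VEH libraries (6.88 to 6.96). Cd52 at 155.05 against 217.5 and Coro1a at 141.9 against 174.7 FPKM did not overlap, while Laptm5 at 192.3 against 214.0 FPKM and the other pan-leukocyte genes did. Measured relative to their mean in each library, an alternative added after the values had been seen, the median of all tested genes shifted to 0.24, and the log2 differences of the members were -0.82 for Cd83, -0.12 for Irf8, -0.08 for Cd80 and Irf4, 0.07 for Itgax, 0.13 for Zbtb46, 0.14 for Cd40, 0.26 for Cd86, 0.32 for Flt3 and 0.38 for Cd207. Cd83 remained without overlap and past the threshold (adjusted p = 0.00969). Flt3 was then without overlap in the other direction, higher in CCR3, and Cd80 and Irf4 overlapped. The part of leukocyte content in the differences of the members was not tested beyond these values.

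Promoter sequences were examined for letters that the members share. RefSeq (GRCm38.p6) start sites, with 250 bases before and 50 after, were at hand for 7 of the 10 members: Cd80, Cd207, Itgax, Flt3, Zbtb46, Irf8 and Irf4. No promoter was at hand for Cd83, Cd86 and Cd40, so these were not searched for any of the patterns below. The heptamer TGANTCA was found in 4 of the 7 promoters searched, against 7.81% of 32851 promoters of that length. With C or G at N it is the site of AP-1 factors and of the BATF proteins that pair with IRF4 and IRF8. The match in Cd80, TGATTCA, is not of that form, and the share of all promoters covers every base at N. The pattern, with N for any base, is the same on both strands. No promoter of the 7 held a match to the kappaB consensus (6.93% of promoters), the interferon-stimulated response element core (3.44%) or the ETS-IRF composite element (2.72%), searched on both strands. GAGGAA, a core of sites for the myeloid factor PU.1, was in Cd207 and Irf4 (28.3% of promoters), and AGAACA, a half-site for steroid receptors, in Cd80, Cd207, Itgax and Zbtb46 (19.0%). A match is a description of letters and not of a bound site. Bases -75 to 25 are printed around the start for the 4 members with the heptamer, in capitals, which lies 42, 7, 56 and 61 bases before the start in Cd80, Cd207, Itgax and Zbtb46, and for Irf8 (the first of 2 listed starts) and Irf4, whose promoters lack it.
Cd80, chr16:38458858-38458957, plus strand: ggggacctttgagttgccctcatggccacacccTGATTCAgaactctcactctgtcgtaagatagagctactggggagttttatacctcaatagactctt
Cd207, chr6:83677833-83677932, minus strand: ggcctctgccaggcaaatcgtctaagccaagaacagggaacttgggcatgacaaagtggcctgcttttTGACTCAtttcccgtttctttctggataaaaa
Itgax, chr7:128129475-128129574, plus strand: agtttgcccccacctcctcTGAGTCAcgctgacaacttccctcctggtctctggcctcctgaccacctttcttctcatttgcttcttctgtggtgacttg
Zbtb46, chr2:181424364-181424463, minus strand: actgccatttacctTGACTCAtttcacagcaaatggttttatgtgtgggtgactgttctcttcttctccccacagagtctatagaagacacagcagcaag
Irf8, chr8:120736283-120736382, plus strand: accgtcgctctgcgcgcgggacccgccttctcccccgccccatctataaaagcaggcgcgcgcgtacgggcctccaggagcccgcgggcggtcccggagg
Irf4, chr13:30749158-30749257, plus strand: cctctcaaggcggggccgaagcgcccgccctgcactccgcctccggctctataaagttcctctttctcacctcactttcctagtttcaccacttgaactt
The members with the heptamer include Cd80, lower in CCR3 without overlap, and Cd207, which overlapped. Irf4, which lacks it, was also lower without overlap. No source used here names the build behind the FPKM values, and the coordinates belong to the RefSeq table alone.

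The wider pathway was read from lists chosen with earlier results of these data known. Of 151 tested genes of these lists that are not members, 15 fell and 2 rose, by limma adjusted over all genes (11.3% past the threshold, beside 3.74% of all tested genes). CD40 signals through NF-kB, and of 16 genes of CD40 and NF-kB signalling 4 fell, none rose and 12 did not pass (median -0.19). Nfkbie, the inhibitor IkB-epsilon and itself an NF-kB target, was 20.4, 18.3 and 17.3 FPKM in VEH and 8.29, 7.39 and 9.06 FPKM in CCR3, a log2 difference of -1.09 ± 0.09 (SE, adjusted p = 0.00226), close to that of Cd83. Nfkb2 and Relb, the subunits of the noncanonical pathway that CD40 engages, fell from 25.8 ± 0.696 to 17.3 ± 2.06 FPKM and from 15.2 ± 0.379 to 10.4 ± 1.42 FPKM. Traf5, an adaptor of CD40 and related receptors, fell from 4.97 to 3.34 FPKM. Nfkb1 (37.9 against 40.1 FPKM) and Nfkbia (111.0 against 106.0 FPKM) overlapped and did not pass. Rela (30.1 against 34.8 FPKM), Traf2 (8.15 against 9.55 FPKM) and Traf3 (5.95 against 6.83 FPKM) were lower without overlap and did not pass either. Map3k14 overlapped (log2 difference -0.05), and Traf6 was higher without overlap (log2 difference 0.18), and neither passed. Of the 16 differences 14 were negative and 2 positive. Whether the noncanonical pathway differed as a whole was not tested.

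Among 15 tested genes of mature migratory dendritic cells 5 fell, 1 rose and 9 did not pass (median -0.16). Pdcd1lg2, the PD-1 ligand PD-L2, fell from 6.01 ± 0.341 to 3.21 ± 1.01 FPKM, with 5.80, 6.40 and 5.82 FPKM in VEH and 2.66, 2.59 and 4.37 FPKM in CCR3. Il4i1, a secreted amino acid oxidase, fell from 7.35 to 4.91 FPKM, Marcksl1, an actin-associated protein gene, from 53.2 to 37.3 FPKM, and the cytokine gene Il15 from 9.14 to 6.98 FPKM, and Relb is also on this list. Il15ra, which presents IL-15 to other cells, rose from 14.4 ± 0.431 to 21.1 ± 2.75 FPKM. The genes by which migrating cells are best known did not pass: Ccr7, the lymph node homing receptor, was 3.73 ± 1.18 against 3.87 ± 0.364 FPKM, Fscn1, an actin bundler, 38.3 against 42.7 FPKM, and the chemokine gene Ccl22 6.02 against 5.52 FPKM. Cd200 was higher without overlap (31.9 against 26.8 FPKM) and did not pass. Il12b, under the filter, was lower without overlap (0.34 against 0.71 FPKM). Of the 15 differences 10 were negative and 5 positive. Cd83 was thus lower with the 5 genes that fell, while Il15ra rose and Ccr7 overlapped between groups as Cd86 did. With 1 library left out in turn, Pdcd1lg2 and Relb stayed past the threshold in 1 and 2 of 6 fits, and Cd83 in 6.

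Of 9 other costimulatory and coinhibitory ligands Pdcd1lg2 fell and 8 did not pass (median -0.24). Cd274, which encodes PD-L1, was 14.3 against 20.3 FPKM (adjusted p = 0.0725), and Icosl, the ICOS ligand gene, 7.10 against 6.29 FPKM. On the T cell side 2 of 7 tested partners fell and 5 did not pass (median -0.28). Cd28, the activating receptor for CD80 and CD86, fell from 2.63 ± 0.257 to 1.48 ± 0.257 FPKM, and Cd4 fell from 14.6 to 8.87 FPKM. Ctla4, the inhibitory receptor for the same ligands, was 8.88 ± 2.22 against 9.07 ± 0.953 FPKM and did not pass. Pdcd1, the PD-1 receptor of both PD-L1 and PD-L2, was higher in each CCR3 library than in any VEH library, at 3.59 ± 1.20 against 2.35 ± 0.165 FPKM, and did not pass (adjusted p = 0.175 by limma). Cd40lg, the CD40 ligand gene, lay under the filter at 0.263 against 0.317 FPKM. T cell markers were lower as well (Cd3g fell from 13.1 to 8.44 FPKM, 2 of 8 markers fell, median -0.38, sums of 125.6 to 150.7 FPKM in CCR3 and 159.3 to 160.3 in VEH), and their part in the fall of Cd28 was not tested. Most of each sum was Thy1, at 96.2 to 112.8 FPKM in CCR3 and 110.8 to 113.1 FPKM in VEH, and its groups overlapped.

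**Figure D4:**
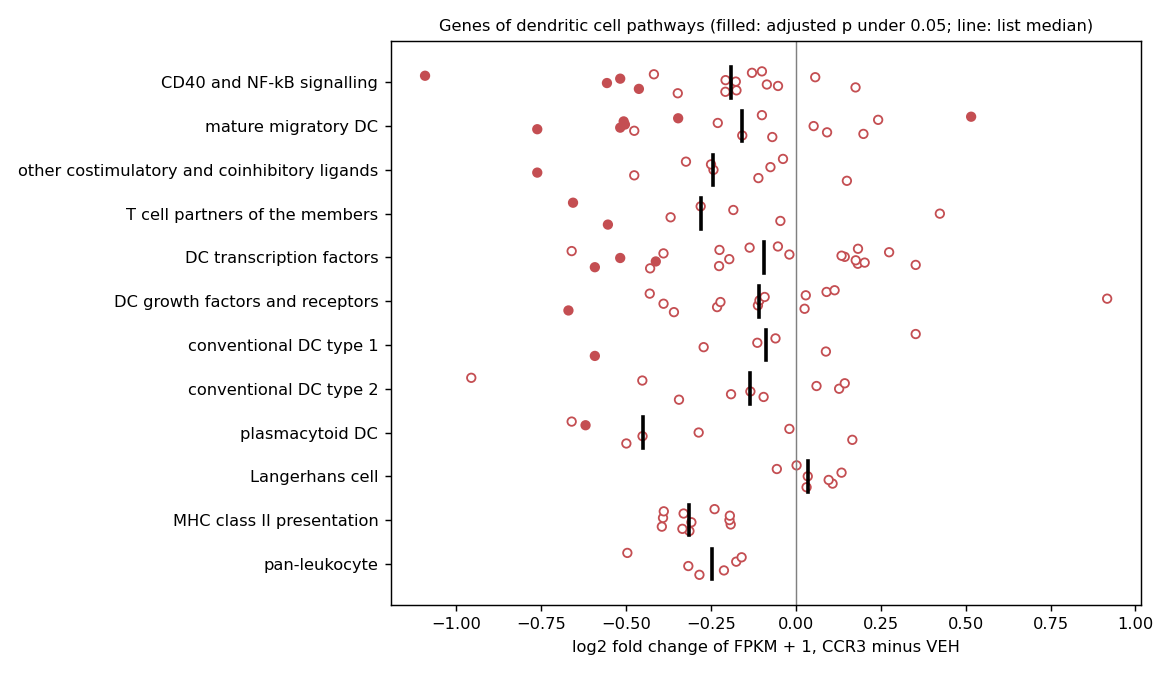
Log2 fold change of FPKM + 1 (x axis, CCR3 minus VEH) of each tested gene in 12 lists, filled where the adjusted p was under 0.05, with a line at the list median. Nfkbie at -1.09 is the lowest point, 1 filled point lies above 0 (Il15ra), and the Langerhans cell list is the 1 list with a median above 0 (0.04, and -0.01 without CCR3 replicate 2).

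The subsets of dendritic cells were read from 4 lists. Of 6 tested genes of type 1 conventional dendritic cells Batf3, a factor this subset needs and a partner of IRF8, fell from 3.02 ± 0.214 to 1.69 ± 0.421 FPKM, and 5 did not pass (median -0.09). Xcr1 and Clec9a, its defining surface receptors, lay under the filter (0.137 against 0.283 and 0.687 against 0.853 FPKM). None of 9 genes of type 2 cells passed (median -0.13; no gene in either direction by limma), among them Ltb, a lymphotoxin chain, at 5.63 ± 2.29 against 11.5 ± 1.67 FPKM (adjusted p = 0.0515), Cd1d1 at 4.32 against 6.23 FPKM and the lectin gene Clec10a at 128.9 against 144.8 FPKM. Of 7 genes listed for plasmacytoid cells Spib, a factor of plasmacytoid and B cells, fell from 2.64 ± 0.225 to 1.38 ± 0.329 FPKM, and 6 did not pass (median -0.45), among them the surface marker Siglech at 3.60 ± 1.40 against 5.32 ± 0.751 FPKM. Ly6d, the 1 gene of this list with a positive difference (0.17), was 954.5 against 828.8 FPKM. That is far above Siglech and Spib, so the list may bear on plasmacytoid cells only in part. None of 7 Langerhans cell genes passed (median 0.04, and -0.01 without CCR3 replicate 2), with Runx3 at 15.7 against 13.9, Cdh1 at 77.0 against 71.7 and Cd24a at 240.4 against 239.5 FPKM. Keratinocytes also express Cdh1 and Cd24a, so this list bears on Langerhans cells only in part.

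Of 20 transcription factors of dendritic cells 3 fell and 17 did not pass (median -0.09): Batf3, Relb and Zeb2, a repressor active in type 2 and plasmacytoid cells (22.6 to 16.8 FPKM). Spi1, which encodes PU.1, was 78.7 ± 16.1 against 105.0 ± 5.98 FPKM and did not pass. Of the 20 factors 8 had a positive difference, among them Id2, a factor that type 1 cells need, at 111.4 ± 15.2 against 86.6 ± 5.32 FPKM, and Irf2, an interferon regulatory factor, at 20.04 ± 3.30 against 16.3 ± 0.91 FPKM, both without overlap and neither past the threshold. Id2 also stood far above Xcr1 and Clec9a, so its level cannot be read as that of type 1 cells. Of 14 growth factors and receptors Csf1, the macrophage growth factor, fell from 45.4 ± 2.05 to 28.4 ± 4.58 FPKM, and 13 did not pass (median -0.11). The largest difference among the tested genes of this list was in the other direction. Tslp, an epithelial cytokine that acts on dendritic cells, was 279.15, 265.98 and 139.23 FPKM in CCR3 and 132.1, 119.33 and 96.3 FPKM in VEH, without overlap (log2 difference 0.92 ± 0.25 SE, adjusted p = 0.0868 by limma). Csf2, under the filter, was lower without overlap (0.32 against 0.823 FPKM). Flt3l, the ligand of Flt3, was 5.28 ± 0.740 against 7.04 ± 0.708 FPKM. All 11 genes of MHC class II presentation, from the chains themselves to the factors that load and transcribe them, had a negative difference and none passed (median -0.31), with Cd74, the invariant chain, at 980.3 ± 262 against 1209 ± 119 FPKM, H2-Eb1, a beta chain, at 312.9 against 401.9 FPKM and H2-Oa, a chain of a peptide-loading regulator, at 1.73 against 2.53 FPKM. Their summed level was 2704 to 4291 FPKM in CCR3 and 3812 to 4662 FPKM in VEH, and CCR3 replicate 4 again held the highest CCR3 value.

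Markers of other cells gave the setting. Of 15 macrophage and monocyte genes 1 rose (Mertk, a receptor for dying cells, from 7.13 to 10.7 FPKM) and 14 did not pass (median -0.20, sums of 2820 to 3562 FPKM in CCR3 and 3328 to 3912 FPKM in VEH). None of 6 neutrophil genes passed (median 0.25), among them Mmp8 at 10.7 against 7.05, Csf3r at 41.4 against 53.1 and S100a8 at 1849 against 1541 FPKM, with sums of 2790 to 4077 FPKM in CCR3 and 2490 to 3315 FPKM in VEH. None of 7 keratinocyte genes passed and 7 were positive (median 0.38), with sums of 6199 to 9690 FPKM in CCR3 and 6338 to 7348 FPKM in VEH. Krt14 was at 4915 against 4499, Krt10 at 1085 against 647.2 and Dsg1a at 69.2 against 43.6 FPKM, and each overlapped between groups. Krt10 and Dsg1a were highest in CCR3 replicate 2 (1779 and 105.1 FPKM). Trp63 (39.7 against 30.2 FPKM) and Dsp (178.7 against 127.5 FPKM) were higher without overlap. CCR3 replicate 2, lowest in Irf8 and Itgax, was the highest in keratinocyte genes. Of the B and plasma cell list 2 of 6 genes were tested and did not pass, Cd79b at 1.55 against 2.73 FPKM and Sdc1, which keratinocytes also express, at 160.4 against 140.8 FPKM.

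Of the 17 pathway genes past the threshold, Nfkbie alone stayed there whichever of the 6 libraries was left out (adjusted p up to 0.0174), and the highest adjusted p among the others was 0.175 (Zeb2 without VEH replicate 1). All 17 remained past it without CCR3 replicate 4. Without that library, when 8.29% of all tested genes were lower past the threshold and 4.27% higher, 7 of 16 CD40 and NF-kB genes, 7 of 11 MHC class II genes, 4 of 6 pan-leukocyte genes, 5 of 8 T cell genes, 5 of 15 macrophage genes, 4 of 7 plasmacytoid genes, 6 of 20 transcription factors, 6 of 14 growth factors and receptors, 4 of 9 other ligands, 6 of 15 mature migratory genes, 3 of 7 T cell partners, 1 of 6 type 1 genes, 1 of 6 neutrophil genes and 2 of 9 type 2 genes were lower past the threshold. Higher past it were 2 of 7 keratinocyte genes and 1 gene each of the mature migratory, macrophage and growth factor lists. All 17 kept their direction with both scalings of the libraries and with a replicate block, but 10 stayed past the threshold with each library scaled to the same FPKM sum and 5 with the block.

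For likeness of pattern, genes with a mean of at least 5 FPKM were ranked by Pearson's r over the 6 libraries. With so few libraries and 9609 candidate genes a high r is found for almost any profile. The 3 genes most like the mean of the maturation genes were Aar2 (r = 0.993), Idua (r = 0.992) and Ten1 (r = 0.992), and those most like the mean of the identity genes were Eral1 (r = 0.993), Nsmaf (r = 0.984) and Vps51 (r = 0.982). For Cd83 alone, added after the values had been seen, they were Mrgprf, an orphan receptor gene (8.52 in VEH and 4.08 FPKM in CCR3, r = 0.997), Atp6v1b2, a proton pump subunit gene (r = 0.994), and the immediate early gene Ier5 (30.8 in VEH and 21.7 FPKM in CCR3, r = 0.994).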

How the data were processed

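The authors deposited 1 table of FPKM values, rounded to 2 decimals, for 6 libraries. Per the labels' protocols, messenger RNA from skin was selected on oligo(dT) beads and read as short single-end reads. HISAT is named in the submitters' processing notes; no source used here gives its version, the build, the annotation, the counting tool or filters. No counts are held, so depth is unknown and no counting error can be given. Strand is not stated, so overlapping genes on opposite strands cannot be told apart. FPKM sums were 517764 to 553305 per library.

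Values were taken as log2(FPKM + 1). Genes that reached 1 FPKM in 3 or more libraries (13063) were compared by limma 3.58.1 in R 4.3.3 (variance trend, 2-sided, Benjamini-Hochberg over all genes at 0.05), without a replicate block. Fold changes on this scale understate changes of low genes, and a low gene can pass the filter through its higher group. The fit was tested on simulated data with independent noise for each gene. Those data held no shift shared by the genes of a library, so they cannot bear on calls that moved when a library was left out. The members and the 17 lists (164 distinct genes found) were chosen with earlier results of these data known. Named genes are the members, the list genes past the threshold and, in lists with none, the 2 with the largest difference and the most abundant one; other named list genes were chosen after their values were seen. A further gene first put on the B and plasma cell list is not reported here, and 1 of 9 T cell list entries was not analysed here. Alternatives were a pseudocount of 0.1, no filter, a filter of 3 FPKM, 2 scalings, a replicate block, each library left out and, added later, levels relative to pan-leukocyte genes. Tables and plots used Python 3.11.15 and matplotlib 3.10.9.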

Additional observations from a re-analysis of the deposited data

How the results depend on the processing

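Cd83 stayed past the threshold in every setting tried, and was the 1 member called in each of them except without CCR3 replicate 4, where 4 were called (range 1 to 4 over the libraries left out in turn). The number of genes past the threshold was 488, and it was 220 with no filter and 233 (89 higher, 144 lower) with the replicate block, and ran from 74 (without VEH replicate 4) to 1641 (without CCR3 replicate 4) over the libraries left out in turn, each of which moved it by over 1.5 times. The split was 178 higher and 310 lower, against 230 and 261 with median-centred values and 158 and 173 with equal sums. The maturation minus identity difference was -0.24, between -0.29 and -0.17 over the libraries left out. Small differences changed sign. Over the libraries left out in turn, Cd207 ran from -0.11 (without CCR3 replicate 2; -0.04 without VEH replicate 2) to 0.32, Cd86 from -0.0901 to 0.073 (0.0054 without CCR3 replicate 2), Flt3 from -0.12 (without CCR3 replicate 4) to 0.21 and Itgax from -0.444 to 0.0035 (without CCR3 replicate 2). Cd86 was 0.0142 with median-centred values and 0.0144 with equal sums. Relative to pan-leukocyte genes Cd40 (0.14), Cd86 (0.26), Itgax (0.0711) and Zbtb46 (0.13) were positive. The cause of these moves was not tested. The labels do not say whether equal replicate numbers pair the libraries. Deviations from the group means correlated at -0.06, 0.08 and -0.03 for numbers 1, 2 and 4, which with 3 libraries in each group cannot decide it. With the replicate block Cd83 had an adjusted p of 0.02 by limma. Zbtb46 and Irf4 were not tested with the filter of 3 FPKM. FPKM without counts leaves depth, and so the counting error of genes near 2 FPKM such as Irf4, unknown.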
